A study of Oryza sativa with 4 samples.

Results

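The DREB1 and DREB2 genes of rice code for transcription factors of the AP2/ERF family that act in responses to cold, drought, salt and heat. The 9 genes described here, DREB1A, DREB1B, DREB1C, DREB1E, DREB1F, DREB1G, DREB2A, DREB2B and DREB2C, were selected by name: a probe set was taken where its 1 annotated rice gene carried one of these names as symbol or synonym. Of the 9 genes, 7 had such a probe set, with 9 probe sets in all among 57258 non-control probe sets on the array. DREB1F and DREB2C had none and were not analysed here. Total RNA came from the collar of the flag leaf of Oryza sativa, the lamina joint between blade and sheath, and was put on the Rice Genome array of Affymetrix. The 2 groups were wild-type plants and plants of the lc1 mutant, with 2 arrays each that the labels call biological replicates. The labels name no treatment, age, allele or harvest time, and lc1 is known from the literature as a mutant of the auxin-conjugating enzyme gene GH3.1.

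DREB proteins bind the dehydration-responsive element, also called the C-repeat, in the promoters of genes for dehydrins, osmolyte synthesis and other protective functions. Transcripts of the DREB1 class, the rice relatives of the Arabidopsis CBF genes, are known to rise fast and for a short time when plants are chilled, whereas DREB2 genes are known for responses to drought, salt and heat.

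The arrays differed in overall brightness, with a median signal of the tested probe sets of 68.2 and 73.8 in wild-type plants and 88.9 and 69.5 in mutant plants, so signals are printed as deposited and all differences and folds were computed after each array had been scaled to the same median. The floor, a measure of background taken from control probe sets without a rice target, was 9.02 and 11.9 in wild-type plants and 13.8 and 12.9 in mutant plants. GH3.1 was under the floor in wild-type plants, at 1.0 and 9.0, and read 551.8 and 418.1 in mutant plants, so its signal was far apart between the genotypes. LG1, needed to form the ligule and the joint, lay above the floor on each array, from 131.7 to 240.4. Of 5 measured collar markers, 4 lay above the floor on all 4 arrays, with summed signals of 269.7 and 410.0 in wild-type plants and 323.2 and 292.8 in mutant plants. Of 4 measured green blade genes, RBCS, RCA and CAB2R lay above the floor on all arrays, with RBCS from 7005.7 to 7701.8, and RBCS1 lay under it on all, from 3.2 to 7.3. Of 11 measured panicle and flower genes, MADS3, MADS6, MADS7, MADS13 and FZP were at or under the floor on all arrays. The 3 above it on all were MADS4 (16.4 to 40.2), MADS16 (427.6 to 554.6) and a gene named MADS2 (1130.7 to 1413.6). Another gene named MADS2 read 31.1 and 50.8 in wild-type plants and 18.7 and 9.7 in mutant plants, the last under the floor. Its log2 difference between the genotypes was -1.71 (limma adjusted p = 0.295). Which of these genes is the floral MADS2 was not tested. Of 7 measured genes with names of anther genes, 1 lay above the floor on all arrays, MTR1 (73.6 to 141.5). It was matched by name, and whether it is the anther gene of that name was not tested. Of 6 seed genes 2 lay above the floor on all arrays, GLUA2 (154.1 to 230.4) and WAXY (38.9 to 123.1). Of the root genes LSI2 was under the floor throughout and LSI1, a silicon channel gene, read 125.9 and 203.0 in wild-type plants and 416.9 and 182.4 in mutant plants. With 2 arrays a genotype, the precision of each value is limited by their number.

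None of the 6 tested DREB genes differed between lc1 and the wild type beyond the spread between arrays. The DREB1 genes were far apart between the 2 lc1 arrays: DREB1A, DREB1B, DREB1E and DREB1G each had their highest value on lc1 mutant 1 and their lowest on lc1 mutant 2, with the wild-type arrays between them. For DREB1E and DREB1G that lowest value was close to wild type 2, at 20.5 against 22.7 and 94.7 against 103.0 after scaling. DREB2A and DREB2B were at most 1.19-fold apart between arrays of a genotype. DREB1C lay at background on all arrays.

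**Figure D1:**
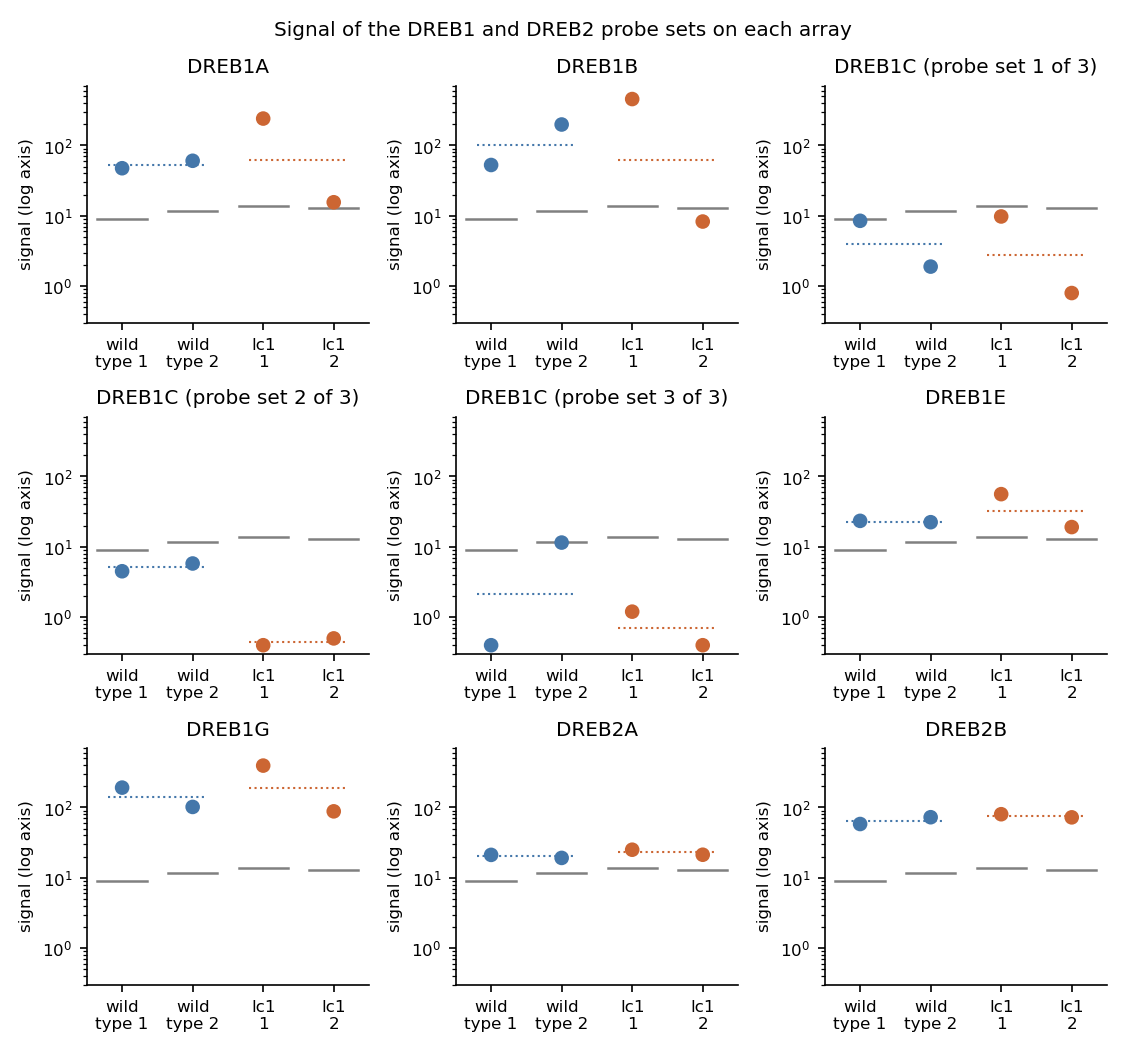
Signal as deposited (log axis) of each of the 9 probe sets on the 4 arrays, with wild type in blue and lc1 in orange. Grey bars mark the floor of each array and dotted lines the geometric mean of a genotype. DREB1A, DREB1B, DREB1E and DREB1G are highest on lc1 mutant 1 and lowest on lc1 mutant 2. For DREB1E and DREB1G that lowest value lies close to wild type 2. DREB2A and DREB2B are level, and DREB1C stays under the floor.

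DREB1A (LOC4347620, chromosome 9) codes for an activator that is induced by cold in rice seedlings. It read 47.5 and 60.6 in wild-type plants and 241.2 and 15.6 in mutant plants. The wild-type arrays lay close together, one lc1 array stood above both of them and the other below both, where it was 1.21 times the floor. The lc1 arrays were 12.1-fold apart after scaling, against 1.18-fold for the wild-type arrays. Relative to the geometric mean of the wild type, lc1 mutant 1 was 3.59-fold higher and lc1 mutant 2 was 3.37-fold lower. The log2 difference between the genotypes was 0.05 ± 0.91 (SE, n = 2 arrays per genotype), with a 95% interval from -2.01 to 2.10 and a limma adjusted p of 0.994 over all tested probe sets.

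DREB1B (LOC4347618, chromosome 9) is likewise known as a cold-induced member. Its signals were 52.8 and 198.6 in wild-type plants and 456.7 and 8.3 in mutant plants, the last of them under the floor. The wild-type arrays were 3.48-fold apart, a gap that 3.46% of tested probe sets reached. On lc1 mutant 1 it was 3.56-fold above the wild-type mean, and on lc1 mutant 2 it was at least 7.79-fold below it. The lc1 arrays were at least 27.7-fold apart. The mean signal was higher in lc1 (232.5 against 125.7) while the log2 difference was negative, -0.88 ± 1.38 (SE, n = 2 arrays per genotype; 95% interval -4.01 to 2.25; limma adjusted p = 0.882).

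In the gene table used for names, DREB1B, DREB1H and DREB1A stand side by side on chromosome 9 with 0 other genes between neighbours. DREB1H had no probe set of its own in the annotation. DREB1A and DREB1B shared the order of the arrays, lc1 mutant 1 above wild type 2 above wild type 1 above lc1 mutant 2. Cross-hybridisation between these related neighbours was not tested.

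DREB1G (LOC4330306, chromosome 2), whose overexpression is known to raise tolerance to water deficit in rice, was well above the floor on each array. It read 191.5 and 101.8 in wild-type plants and 393.6 and 88.1 in mutant plants. The lc1 arrays were 3.49-fold apart and the wild-type arrays 2.04-fold, here with wild type 1 as the higher one. The log2 difference was 0.27 ± 0.56 (SE, n = 2 arrays per genotype; 95% interval -1.001 to 1.54; limma adjusted p = 0.917).

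DREB1E (LOC4336721, chromosome 4) was dimmer, with signals of 23.4 and 22.4 in wild-type plants and 56.1 and 19.1 in mutant plants. The wild-type arrays were 1.13-fold apart and the lc1 arrays 2.30-fold, and lc1 mutant 2 lay 1.17-fold below the wild-type mean. The log2 difference was 0.37 ± 0.47 (SE, n = 2 arrays per genotype; 95% interval -0.70 to 1.44; limma adjusted p = 0.849).

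DREB1C (LOC4339974, chromosome 6) was represented by 3 probe sets, and each of them lay under the floor on all 4 arrays. Their signals ran from 0.4 to 11.5. The probe set whose identifier ends in A1_at read 8.5 and 1.9 in wild-type plants and 9.8 and 0.8 in mutant plants. The one ending in S1_at read 4.5 and 5.8 against 0.4 and 0.5, and the one ending in S1_x_at read 0.4 and 11.5 against 1.2 and 0.4. The 3 probe sets put the arrays in different orders. No fold is given between values under the floor, and all 3 fell below the filter for testing.

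DREB2A (LOC4324418, chromosome 1) is the rice member named after the drought and heat regulator of Arabidopsis. It read 21.2 and 19.2 in wild-type plants and 25.1 and 21.3 in mutant plants, between 1.62 and 2.35 times the floor. All 4 arrays lay close together, and after scaling the genotypes overlapped. The log2 difference was 0.05 ± 0.42 (SE, n = 2 arrays per genotype; 95% interval -0.89 to 0.99; limma adjusted p = 0.984).

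DREB2B (LOC4338484, chromosome 5) is known in rice for alternative splicing that yields an active form under stress. It gave 58.2 and 72.7 in wild-type plants and 80.2 and 72.4 in mutant plants, from 5.63 to 6.45 times the floor. The groups overlapped after scaling, and lc1 mutant 2 was then the highest array. The log2 difference was 0.08 ± 0.31 (SE, n = 2 arrays per genotype; 95% interval -0.62 to 0.78; limma adjusted p = 0.960), so changes of either sign of up to 1.54-fold downward or 1.72-fold upward lie within the interval. Which splice forms the probe set reads was not analysed here.

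The comparison between the genotypes asks whether these stress regulators belong to the transcripts that differ in the mutant collar. Of the 6 DREB probe sets that passed the filter on low signals, 0 passed limma at an adjusted p of 0.05, against 0.0582% of all 34355 tested probe sets (20, of which 16, 0.0466%, were higher and 4, 0.0116%, lower in lc1). At an unadjusted p under 0.05 the count was again 0 of 6, against 8.43% of all. The genotypes did not overlap in 0 of 6, against 40.1% of all. The median log2 difference of the 6 was 0.06 beside 0.07 over all tested probe sets, and their median standard error was 0.52 beside 0.35. The intervals of DREB1A and DREB1B are wide enough to hold changes of several-fold in both directions. RNA of a whole collar cannot tell fewer expressing cells from less RNA per cell.

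Each lc1 array taken without the other gave a different answer for the DREB1 genes. Without lc1 mutant 2, DREB1A was higher in lc1 by 1.84 on the log2 scale and DREB1B by 1.83. Without lc1 mutant 1, DREB1B was lower, with a log2 difference of -3.60 that includes a signal under the floor, and DREB1A gave -1.75. DREB1E went from 0.97 to -0.23 and DREB1G from 1.17 to -0.63 between the same settings. DREB2A and DREB2B stayed between -0.08 and 0.18 whichever array was left out. A fit on 3 arrays takes the lone lc1 array to vary as the wild-type arrays do.

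**Figure D2:**
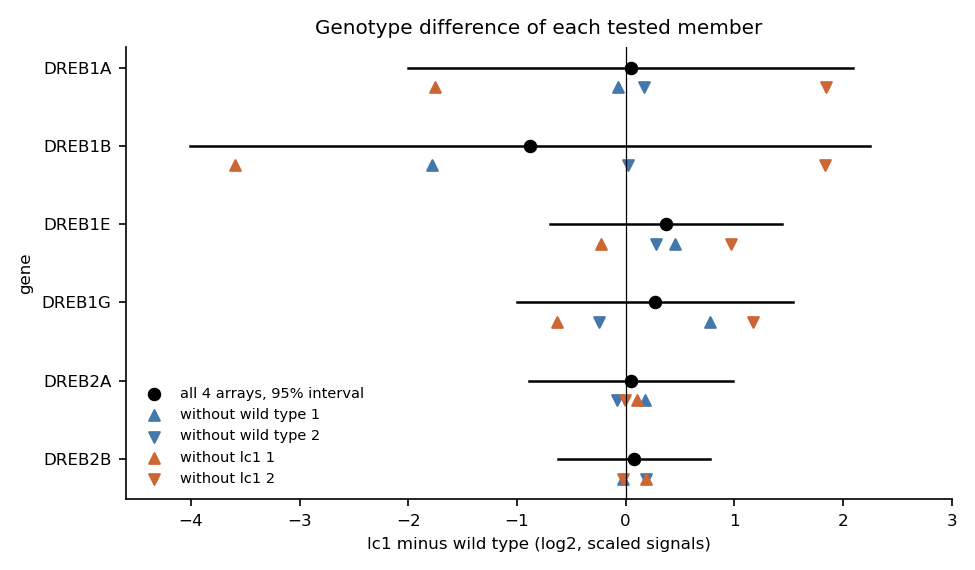
Log2 difference between lc1 and the wild type after scaling, for the 6 tested members. Black points and lines give all 4 arrays with the 95% limma interval, and triangles give the value without 1 array. Leaving out lc1 mutant 1 or lc1 mutant 2 moves DREB1A from -1.75 to 1.84 and DREB1B from -3.60 to 1.83, while DREB2A and DREB2B hardly move.

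The order of the arrays was the same at its ends in the 4 detected DREB1 genes. All 4 were highest on lc1 mutant 1 and lowest on lc1 mutant 2, an order shown by 6.11% of all tested probe sets and by 0 of the 2 DREB2 genes. In DREB1E and DREB1G the low end was close to wild type 2. This order of the arrays was noticed in these data and is given as a description. It was the same with signals as deposited, with trimmed mean scaling and with quantile normalization. With values under the floor raised to it, the 4 genes were each at least 2-fold higher on lc1 mutant 1 than on lc1 mutant 2, which held for 4.35% of all tested probe sets. For DREB1B, 16 of the 34355 probe sets, itself among them, had as large a ratio of lc1 mutant 1 to lc1 mutant 2. The number was 55 for DREB1A, 377 for DREB1G and 1029 for DREB1E. DREB2A and DREB2B differed between the lc1 arrays by 1.09-fold and 1.15-fold, gaps that 83.2% and 71.0% of tested probe sets reached or passed.

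**Figure D3:**
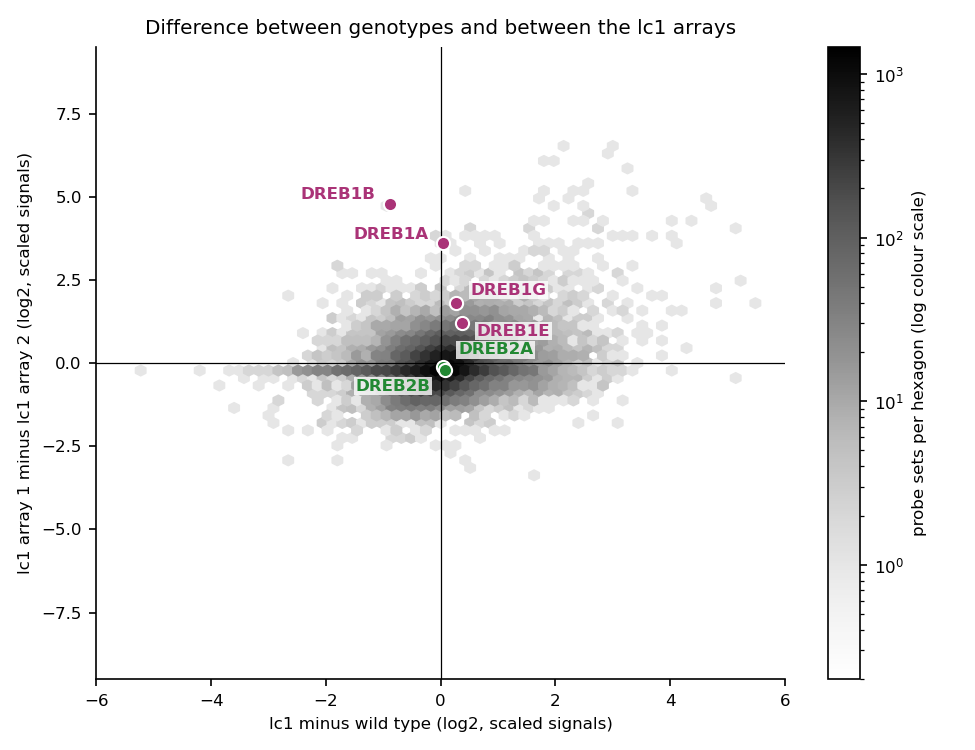
Each tested probe set by its log2 difference between the genotypes (horizontal) and between lc1 mutant 1 and lc1 mutant 2 (vertical, values under the floor raised to it). Grey hexagons count all 34355 probe sets. DREB1B and DREB1A stand far above the bulk with genotype differences of -0.88 and 0.05, DREB1G and DREB1E lie above 0 on the vertical axis, and DREB2A and DREB2B lie in the centre.

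The 5' to 3' signal ratio of rice control genes on the array, a sign of RNA quality, also had lc1 mutant 1 as the highest and lc1 mutant 2 as the lowest array. For Gapdh it was 0.164 and 0.236 in wild-type plants and 0.246 and 0.138 in mutant plants. For actin it was 0.0822 and 0.100 against 0.131 and 0.0596, and for cyclophilin 0.318 and 0.383 against 0.446 and 0.313. The 3 controls thus ordered the 4 arrays as DREB1A and DREB1B did, while DREB1E and DREB1G had the wild-type arrays the other way round. Lc1 mutant 1 was also the brightest array before scaling. The part of RNA quality and of array brightness in the DREB1 values was not tested.

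Genes of stress, cold and light signalling, some of them known to act before the DREB genes, were searched by name as well. Of 21 names of regulators of DREB1 expression, cold sensing and light signalling, 12 were measured, and 0 passed limma over all probe sets. At an unadjusted p under 0.05, 2 of the 12 were higher in lc1 and 0 lower, against 5.65% and 2.78% of all tested probe sets. MYB4, a MYB factor known for cold tolerance in rice, read 248.8 and 275.6 against 879.9 and 333.4, a log2 difference of 0.90 ± 0.34 (SE, n = 2 arrays per genotype; limma adjusted p = 0.535). MYB2 read 118.4 and 182.3 against 421.9 and 188.1 (0.79 ± 0.35; limma adjusted p = 0.592). Without lc1 mutant 2, MYB4 gave 1.42, and without lc1 mutant 1 it gave 0.38 and MYB2 0.39. The phytochrome gene PHYC gave -0.33 ± 0.22 (limma adjusted p = 0.708). MYBS3, known in rice as a repressor of DREB1 genes in long cold, read 748.6 and 623.0 against 835.9 and 811.6. Between the lc1 arrays, MYB4 and MAPK5, a stress-activated kinase also named MPK3, were at least 2-fold higher on lc1 mutant 1, and 0 of the 12 were at least 2-fold lower, against 4.35% and 3.32% of all tested probe sets. In 0 of the 12 was lc1 mutant 1 the highest and lc1 mutant 2 the lowest array, against 6.11% of all. MAPK5 read 258.9 and 203.9 in wild-type plants and 587.6 and 205.6 in mutant plants, so that MYB4, MYB2 and MAPK5 were each highest on lc1 mutant 1. Another gene named MPK3 read 468.0 and 563.0 in wild-type plants and 567.3 and 518.3 in mutant plants. After scaling it was 1.17-fold lower on lc1 mutant 1 than on lc1 mutant 2. MAPK5, this other MPK3 gene, MYBS3 and DHN1 were picked after their values had been seen. So were the response genes named below for their difference between the lc1 arrays.

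Genes that cold, drought or heat are known to induce, many of them with DREB proteins upstream, went both ways. Of 27 names searched, 16 genes were measured, and 0 passed limma over all probe sets. At an unadjusted p under 0.05, 2 were higher and 4 lower in lc1, against 5.65% and 2.78% of all. The dehydration protein gene EM read 222.1 and 141.3 in wild-type plants and 16.2 and 43.1 in mutant plants, a log2 difference of -2.89 ± 0.55 (SE, n = 2 arrays per genotype; limma adjusted p = 0.150). LEA19, a late embryogenesis abundant protein gene also named LEA3, read 519.2 and 166.3 against 30.8 and 64.6 (-2.87 ± 0.60; limma adjusted p = 0.196). The heat shock factor gene HSFA2C read 47.2 and 35.2 against 239.9 and 87.0 (1.68 ± 0.42; limma adjusted p = 0.273). Without lc1 mutant 2 the log2 differences were -3.78 for EM, -3.58 for LEA19 and 2.23 for HSFA2C. Without lc1 mutant 1 they were -2.01 for EM, -2.16 for LEA19 and 1.12 for HSFA2C. The median log2 difference of the 16 was 0.03, with 8 above 0 and 8 below, where 56.6% of all tested probe sets lay above 0.

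Between the lc1 arrays these response genes also went both ways. With values under the floor raised to it, 4 of the 16 were at least 2-fold higher on lc1 mutant 1, as the DREB1 genes were, and 4 were at least 2-fold lower, against 4.35% and 3.32% of all tested probe sets. The higher ones were TPP1, a trehalose phosphate phosphatase gene (143.6 and 37.6 in wild-type plants, 300.2 and 77.1 in mutant plants), the heat shock factor genes HSFA3 and HSFA2C, and SALT, a lectin gene named for its induction by salt. The lower ones were RAB21, RAB16B, EM and LEA19, dehydrin and late embryogenesis abundant protein genes known for induction by abscisic acid. The order with lc1 mutant 1 highest and lc1 mutant 2 lowest was found in 1 of the 16, the heat shock factor gene HSFA2A (9.7 and 5.4 against 18.5 and 3.4, with wild type 2 and lc1 mutant 2 under the floor), against 6.11% of all. RAB21 read 782.1 and 677.3 in wild-type plants and 50.1 and 324.6 in mutant plants, so both lc1 arrays lay below both wild-type arrays. Its log2 difference between the genotypes was -2.66 ± 0.77 (limma adjusted p = 0.366), and that of RAB16B was -2.02 ± 0.57 (limma adjusted p = 0.359). The dehydrin gene DHN1, also named LIP9 and known in rice as a target of DREB1A, read 1940.0 and 1390.3 against 3009.2 and 1674.9 (log2 difference 0.30; limma adjusted p = 0.753).

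**Figure D4:**
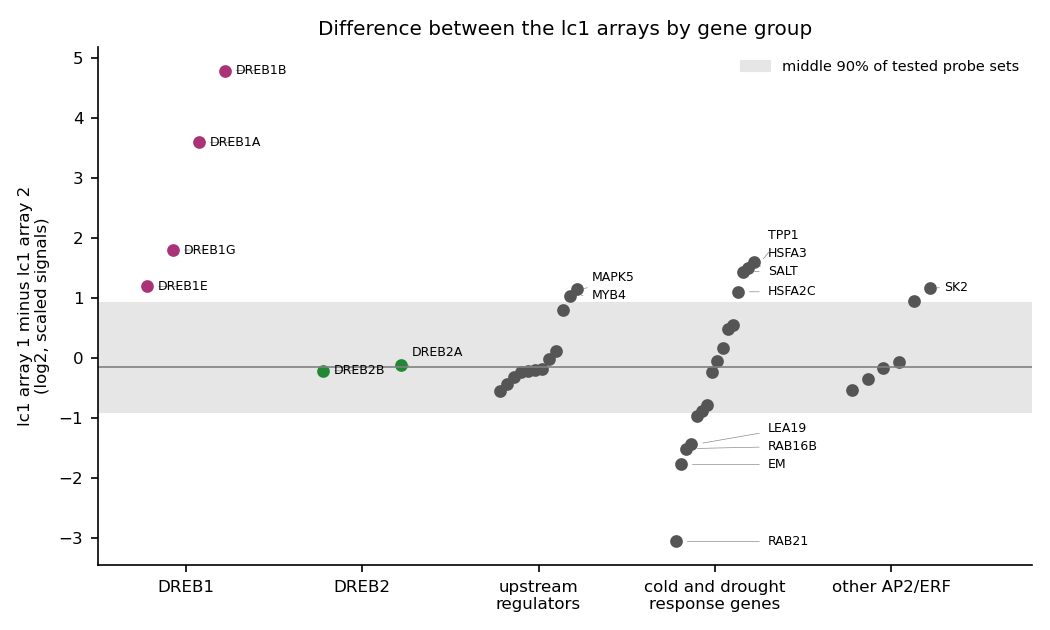
Log2 difference between lc1 mutant 1 and lc1 mutant 2, with values under the floor raised to it. The groups are the DREB1 and DREB2 members, measured regulators, response genes and other genes with AP2/ERF names. The grey band holds the middle 90% of tested probe sets. The 4 DREB1 points lie above the band, the DREB2 points inside it, and the response genes reach beyond it on both sides.

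Of the other rice genes named DREB1 or DREB2 and searched for, 1 was measured. DREB2D had 2 probe sets, and the brighter read 0.5 and 3.0 in wild-type plants and 1.5 and 3.7 in mutant plants, under the floor on all arrays. DREB1H, DREB1I and DREB1J had no probe set with a single annotated gene, and they were not analysed here.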

How the data were processed

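The values deposited by the authors are intensities, 1 for each probe set on each array, on a linear scale. Per the series' design text the authors made these signals with the Affymetrix Microarray Suite, version 5.0, and tested genes with that suite's change call and a mixed model. R 1.8.0 is named in the submitters' processing notes. Detection calls and probe-level data were not used here. Of 57381 probe sets, 123 controls were left out.

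Each array was divided by its median signal over the tested probe sets. The 18 signals of 0 were set to 0.05 before log2. The test covered the 34355 probe sets whose mean log2 signal reached the 40th percentile, 2.58. It used limma 3.58.1 under R 4.3.3 with an intensity trend and a single genotype term, which left 2 residual degrees of freedom, with Benjamini-Hochberg adjustment over all tested probe sets and a 2-sided threshold of 0.05. Limma was also run on simulated data with equal and independent noise on all arrays. Such data cannot show how the test behaves where the lc1 arrays spread more widely. The floor of an array is the 95th percentile over 23 Tag and TrpnX controls, and a fold against a value under the floor uses the floor and is a lower bound.

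Genes were named through the platform annotation and a gene table (assembly ASM3414082v1), whose coordinates were used only for the order of genes on a chromosome. A single gene was given for 22436 of the 57258 probe sets, several for 95 and none for 34727. List genes were represented by their brightest probe set. The members, lists and tests were chosen with earlier results of these data known. All probe sets of the members were named, and from each list the 3 genes with the smallest p. At most 1.64% of signals were identical between any 2 arrays. Arrays with the same replicate number did not deviate together (correlation of deviations -0.04), so no pairing was used. Other scalings, filters, a larger added constant, a common variance prior, the replicate block and leaving out each array were tried as alternatives.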

Additional observations from a re-analysis of the deposited data

How the results depend on the processing

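The 0 calls among the DREB probe sets held under each alternative except leaving out a single array, where the count ran from 0 to 1 (DREB1A without lc1 mutant 2, DREB1B without lc1 mutant 1). The count over all tested probe sets, 20, was 1 with signals as deposited, 13 with trimmed mean scaling, 4 with quantile normalization, 4 with no filter, 46 with a filter at the 60th percentile, 53 with 16 added before log2, 0 without an intensity trend (limma, 2439 at an unadjusted p under 0.05) and from 11 to 1211 without 1 array. The cause was not tested. With the replicate number as a block the count was 658, and it was 0 for the DREB probe sets, while EM, LEA19 and HSFA2C passed limma. The numbers are not known to mark shared plants. Signals as deposited moved the median of all tested probe sets from 0.07 to 0.22, and the other scalings to -0.05 and -0.02. With trimmed mean scaling DREB1A, DREB2A and DREB2B changed sign (-0.081, -0.077 and -0.046), as DREB2A did with quantile normalization (-0.023). Without 1 array the values ran from -1.75 to 1.84 for DREB1A, -3.60 to 1.83 for DREB1B, -0.23 to 0.97 for DREB1E, -0.63 to 1.17 for DREB1G, -0.080 to 0.18 for DREB2A, -0.023 to 0.18 for DREB2B and -0.43 to 1.07 for the median of the 6. The order of the arrays in the 4 DREB1 genes was checked under the other scalings after it had been seen. DREB2A, DREB1E and DREB1C lie too near the floor for small changes to be seen.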

Other observations

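Other genes with names of the AP2/ERF family, to which the DREB genes belong, were few in the annotation. Of those searched by name 7 had a probe set and 6 were tested, and 0 passed limma over all probe sets. At an unadjusted limma p under 0.05, 1 was higher and 0 lower in lc1, against 5.65% and 2.78% of all tested probe sets. That gene, matched by the name IDS1, read 955.1 and 843.6 in wild-type plants and 2614.5 and 1048.5 in mutant plants. Its log2 difference was 0.74 ± 0.30 (SE, n = 2 arrays per genotype; limma adjusted p = 0.558). Without lc1 mutant 2 IDS1 gave 1.22, and without lc1 mutant 1 it gave 0.25. SMOS1, known in rice for a role in organ size, gave -0.48 ± 0.27 (limma adjusted p = 0.664). SK1 and SK2 are names that genes of other families also carry. IDS1, SK1 and SK2 entered by name, and whether they code for AP2/ERF proteins was not tested. SK1 gave 0.71 ± 0.32 (limma adjusted p = 0.596). SK2, chosen after its values were seen, read 53.9 and 54.1 in wild-type plants and 138.3 and 47.9 in mutant plants. It was the 1 gene of the 6 with lc1 mutant 1 as the highest and lc1 mutant 2 as the lowest array, against 6.11% of all, and the lc1 arrays were 2.26-fold apart. FZP, a regulator of spikelet meristems, was under the floor on all arrays.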
